A study of Mus musculus with 12 samples.

Results

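S100a8 and S100a9, the genes of calprotectin, were measured together with the other S100 genes on a list of 9 in livers of young mice that drank low-dose penicillin. The list was S100a8, S100a9, S100a1, S100a4, S100a6, S100a10, S100a11, S100a13 and S100a16. The pair S100a8 and S100a9 was selected from these same arrays because every penicillin liver lay below every control liver, so their difference between the groups is given as a description, with no test. The question put to the remaining members was whether they followed the pair. Of the 9 genes, 8 were measured by a probeset annotated to them alone (12 probesets), and 7 passed a filter on dim probesets and were tested among 11899 genes. S100a4 fell under that filter. The only probeset of S100a11 is annotated to 3 loci, and no value is given for it.

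The penicillin group was 6 male C57BL/6 mice that were weaned and then drank water with penicillin at low dose, and the control group was 6 males of the same strain given no antibiotic. All 12 mice had food and water at will under 12 h of light and 12 h of darkness, and were killed for their livers 7 weeks into the intervention. Each liver was measured on 1 Affymetrix array. Neither the dose, the cages nor the hour of collection was given in the sources used here, so an effect of shared cages and one of penicillin cannot be told apart, and p-values measure the spread between these 12 samples. Values are log2 probeset intensities after RMA, and a difference is penicillin minus control. Probesets differ in how brightly they bind, so levels are compared between livers and never between genes.

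Calprotectin is a pair of small calcium-binding proteins, S100A8 and S100A9, stored in large amounts in the cytoplasm of neutrophils and also made by monocytes. Released at sites of inflammation, it binds zinc and manganese that microbes need, and it signals through Toll-like receptor 4 and the receptor RAGE. The other S100 proteins share its calcium-binding fold but serve different cells: S100A6 and S100A4 are abundant in fibroblasts and other motile cells, S100A10 binds annexin A2 at membranes, S100A1 binds calcium-handling proteins of muscle, and S100A13 takes part in the release of fibroblast growth factor 1.

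Most S100 genes stand side by side. In the RefSeq gene table of assembly GRCm38.p6, 15 lie on chromosome 3, and S100a1, S100a13, S100a14, S100a16, S100a3, S100a2, S100a4, S100a5, S100a6, S100a7a, S100a8 and S100a9 follow each other there with 0 other protein-coding genes between them. S100a7l2 comes next, after Pglyrp4. S100a11 and S100a10 are neighbours of each other, with 54 genes between them and S100a7l2. S100b lies on chromosome 10, S100z on chromosome 13 and S100g on the X chromosome.

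The 250 bases before the start of S100a8 and of S100a9 are shown because these 2 neighbouring genes moved together on the arrays. They are RefSeq sequences of GRCm38.p6, read 5′ to 3′ along each gene, at chr3:90668821-90669070 (plus strand) for S100a8 and at chr3:90695722-90695971 (minus strand) for S100a9. Capitals mark matches to the motifs searched.
S100a8: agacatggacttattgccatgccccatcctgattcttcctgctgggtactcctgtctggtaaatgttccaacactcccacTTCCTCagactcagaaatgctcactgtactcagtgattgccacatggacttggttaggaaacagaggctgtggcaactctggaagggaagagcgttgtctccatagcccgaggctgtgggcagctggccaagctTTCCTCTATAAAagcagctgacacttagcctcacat
S100a9: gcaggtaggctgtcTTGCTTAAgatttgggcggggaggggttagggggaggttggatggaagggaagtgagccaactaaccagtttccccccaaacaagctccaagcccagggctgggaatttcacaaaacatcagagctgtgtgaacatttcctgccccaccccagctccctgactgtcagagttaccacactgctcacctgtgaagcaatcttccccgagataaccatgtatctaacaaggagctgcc
5 motifs were searched on both strands: the C/EBP core TTGCNNAA, the STAT core TTCNNNGAA, the AP-1 site TGANTCA, the ETS core of PU.1 GAGGAA and the TATA box TATAAA. In S100a8 the capitals are the ETS core, read on the opposite strand as TTCCTC, beginning 170 and 36 bases before the start, and a TATA box beginning 30 bases before it, directly after the second ETS match. In S100a9 the capitals are 1 C/EBP core, TTGCTTAA, beginning 236 bases before the start. The pair shared 0 of the 5 motifs in these windows. Among 32851 windows of the same length, 9.56% held the C/EBP core, 7.02% the STAT core, 6.75% the AP-1 site, 23.3% the ETS core and 12.4% the TATA box. A match is a run of letters and shows no binding.

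S100a8 (probeset 1419394_s_at) was low in all penicillin livers. Its lowest, median and highest log2 intensities were 3.59, 5.06 and 5.21 in penicillin livers, against 5.49, 6.67 and 8.06 in control livers. The groups did not overlap, with 0.28 between the highest penicillin liver and the lowest control liver. It averaged 4.74 ± 0.64 in penicillin livers and 6.68 ± 0.99 in control livers (SD, n = 6 each), a difference of -1.94 (standard error 0.42), or 3.83-fold lower with penicillin. Penicillin 1 and penicillin 3, at 3.59 and 4.39, lay under 4.73, the level of the filter on dim probesets, where signal cannot be told from background, so the fold is that of the measured intensities only.

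S100a9 (probeset 1448756_at) had log2 intensities of 4.91, 5.57 and 5.78 in penicillin livers as lowest, median and highest, against 5.82, 6.99 and 8.44 in control livers. The groups again did not overlap, but only by 0.03, between penicillin 4 and control 4. The means were 5.42 ± 0.38 in penicillin livers and 7.06 ± 0.90 in control livers (SD, n = 6 each). The difference was -1.63 (standard error 0.35), or 3.1-fold lower with penicillin. Sorted from the most negative difference, S100a8 stood at place 6 and S100a9 at place 9 of 11899 genes. Over all genes tested, 0.151% (18 genes) had every penicillin liver below every control liver, and 0.261% (31 genes) had every one above. The median difference of all genes was 0.01, and 35 genes were lower and 6 higher by more than 1.

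**Figure D1:**
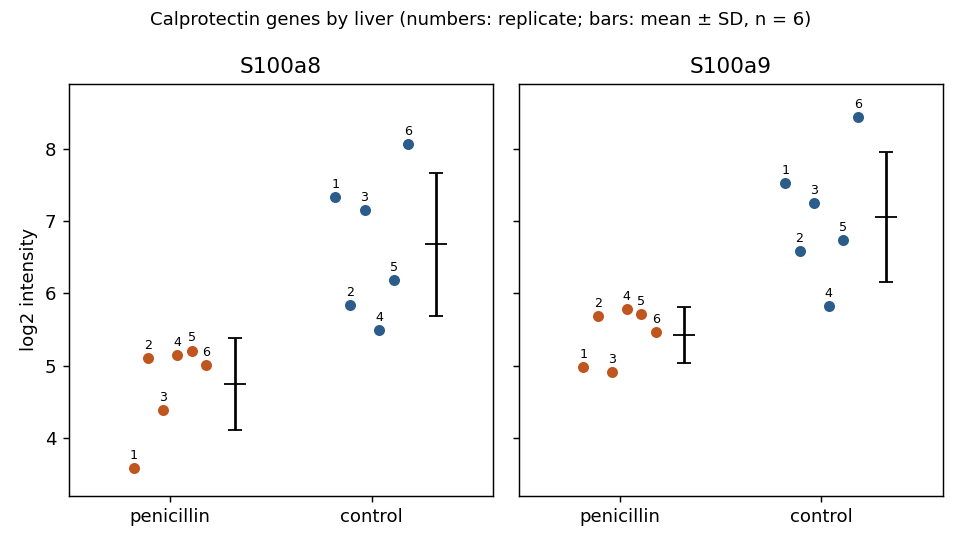
Log2 intensity of S100a8 and S100a9 in each liver, penicillin left and control right; points are single livers with their replicate number, and bars are the mean ± SD of 6 livers. Penicillin livers reach at most 5.21 for S100a8 and 5.78 for S100a9, while control livers start at 5.49 and 5.82 and spread up to 8.06 and 8.44.

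The control livers stood in the same order for both genes. Control 6 was highest (8.06 for S100a8 and 8.44 for S100a9), followed by control 1 (7.33 and 7.53), control 3 (7.15 and 7.24), control 5 (6.18 and 6.73), control 2 (5.83 and 6.59) and control 4 (5.49 and 5.82). Within penicillin livers, S100a8 and S100a9 correlated at Pearson r = 0.87 (exact permutation p = 0.0347, adjusted 0.0694) and Spearman rho = 0.89 (exact p = 0.0333, adjusted 0.0666). Within control livers r was 0.97 (exact permutation p = 0.00139, adjusted 0.00556) and rho was 1.0 (exact p = 0.00278, adjusted 0.0111). The tests were two-sided over all 720 pairings of 6 livers. The smallest p they can give is 0.00139 for Pearson and 0.00278 for Spearman. Adjustment was by Benjamini-Hochberg over 4 relations. Without the 2 livers farthest from the median, r was 0.85 in penicillin livers and 0.98 in control livers. With 6 livers a group, the correlation in penicillin livers did not pass after adjustment, and that in control livers did. In bulk liver RNA, fewer cells that express S100a8 and S100a9 and less of their RNA per cell cannot be told apart.

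S100a6 (probeset 1421375_a_at), encoding calcyclin, came next in size among the S100 genes but did not pass the test. Its lowest, median and highest log2 intensities were 4.32, 5.92 and 6.32 in penicillin livers, against 5.60, 6.12 and 7.07 in control livers. The groups overlapped widely: penicillin 1 and penicillin 3 were lowest, at 4.32 and 4.74, while the other penicillin livers lay among the controls. The means were 5.56 ± 0.83 in penicillin livers and 6.28 ± 0.57 in control livers (SD, n = 6 each), a difference of -0.72 (standard error 0.36, 95% interval -1.51 to 0.06, limma adjusted p = 0.659). Without penicillin 1 the difference was -0.48. S100a6 stood at place 66 of 11899 from the most negative difference. The same penicillin livers, 1 and 3, had the lowest values of S100a8 (3.59 and 4.39) and S100a9 (4.98 and 4.91).

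S100a10, whose protein p11 pairs with annexin A2, showed no difference that could be resolved on its brightest probeset (1416762_at). Its lowest, median and highest log2 intensities were 10.95, 11.47 and 11.74 in penicillin livers, against 11.04, 11.48 and 11.57 in control livers. Penicillin 1, penicillin 6 and control 6 were the 3 lowest, and the groups overlapped. The difference was -0.03 (standard error 0.15, 95% interval -0.36 to 0.29, limma adjusted p = 0.974). The second probeset (1456642_x_at) differed by -0.05. The third (1439348_at) behaved otherwise: it ranged between 3.64 and 5.01 in penicillin livers, with 7.25 in control 1, 7.08 in control 3, 5.78 in control 5 and 4.21 to 4.41 in the remaining controls. It differed by -1.12 between the group means, and with all 3 probesets averaged the difference of S100a10 was -0.40 (limma adjusted p = 0.699), so the size depended on the probeset.

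**Figure D2:**
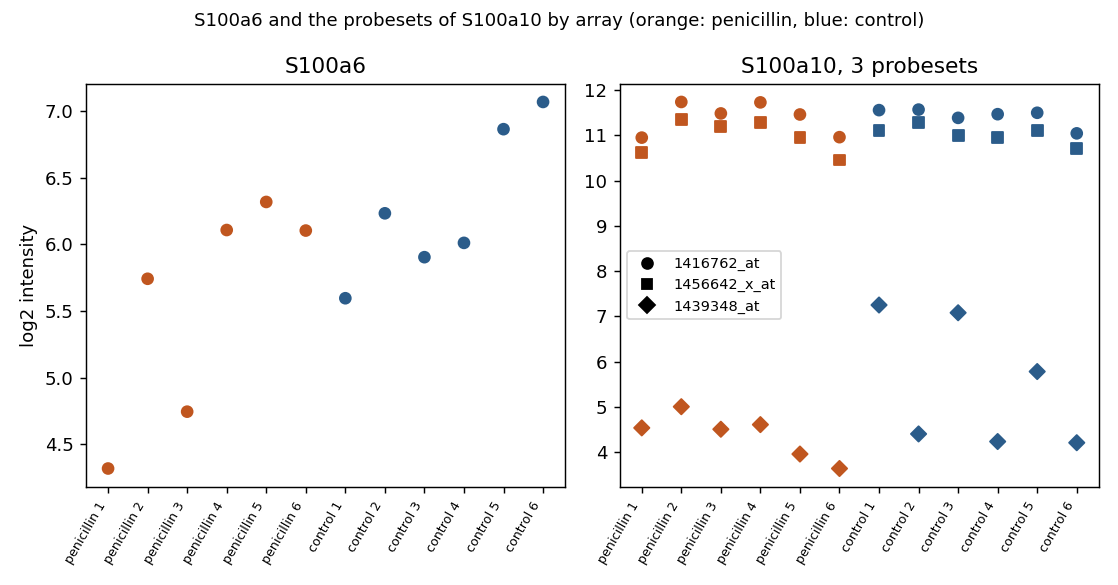
Log2 intensity by liver, penicillin (orange) left and control (blue) right, for S100a6 and for the 3 probesets of S100a10, shown by different symbols. S100a6 is lowest in penicillin 1 and 3 (4.32 and 4.74). On the 2 brightest probesets of S100a10 the groups overlap, with penicillin 1, penicillin 6 and control 6 lowest. The third, 1439348_at, stands high in control 1 and 3 (7.25 and 7.08) and in control 5 (5.78).

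The other 3 tested members had group means within 0.054 of each other. S100a1 (probeset 1419814_s_at) ran from 10.84 to 11.04 with a median of 10.95 in penicillin livers, and from 10.87 to 11.17 with a median of 10.95 in control livers. The difference of S100a1 was -0.05 (standard error 0.06, 95% interval -0.19 to 0.09, limma adjusted p = 0.9). S100a13 (1418704_at) ran from 9.04 to 9.30 with a median of 9.18 in penicillin livers, and from 9.0 to 9.39 with a median of 9.13 in control livers. Its difference was 0.02 (standard error 0.07, 95% interval -0.13 to 0.18, limma adjusted p = 0.965). S100a16 (1425560_a_at), a widely expressed member, ran from 9.19 to 9.59 with a median of 9.40 in penicillin livers, and from 9.29 to 9.37 with a median of 9.35 in control livers. Its difference was 0.05 (standard error 0.06, 95% interval -0.08 to 0.19, limma adjusted p = 0.88). For these 3 genes both groups overlapped almost completely, and the intervals leave room for differences of at most 0.19 in either direction.

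S100a4, a marker of fibroblasts and some macrophages, was too dim to be tested. It ran from 3.59 to 4.16 with a median of 3.82 in penicillin livers, and from 3.63 to 4.27 with a median of 3.80 in control livers, a difference of -0.01. The remaining S100 genes with a probeset of their own, S100a3, S100a5, S100a7l2, S100a14, S100b and S100g, were also all under the filter. Their differences ran from -0.09 for S100a7l2 to 0.04 for S100g. No detection calls were used here, so levels this low cannot be told from background.

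Apart from S100a8 and S100a9, whose direction the choice of members fixed, 3 of the other 5 tested members (S100a1, S100a6 and S100a10) were lower with penicillin by any amount, beside 47.2% of all genes tested. Every penicillin liver lay below every control liver for 2 of the 7, the pair that was chosen for it, beside 0.151% of all genes. At an adjusted p under 0.05 limma called 0 of the other 5 members, beside 0% of all genes (0 of 11899). At an unadjusted p under 0.05 the count was also 0 of 5, beside 7.98% of all genes (950 genes, with a median standard error of 0.09 over all genes tested). On the brightest probeset of each tested member, a difference past 1 on the log2 scale was seen for S100a8 and S100a9 alone.

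**Figure D3:**
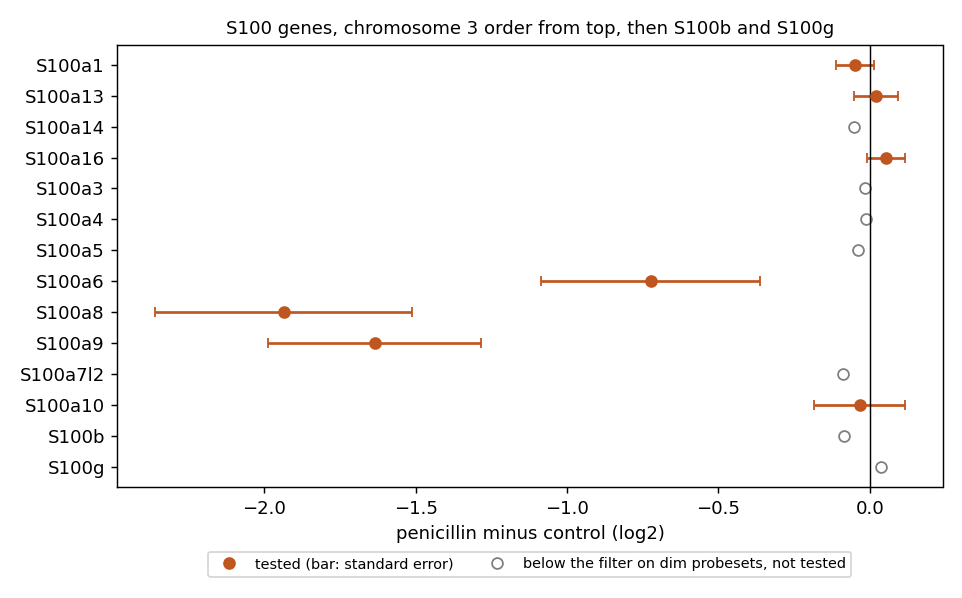
Penicillin minus control difference (log2) of the 14 S100 genes with a probeset of their own; filled points were tested and carry standard errors, open points were under the filter. S100a8 (-1.94) and S100a9 (-1.63) stand apart, S100a6 (-0.72) lies between, and the others lie within 0.1 of 0.

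Correlations after each group's mean was removed describe how members varied among themselves over the 12 livers; all values share the same arrays, and no test is attached. S100a8 and S100a9 correlated at 0.94. S100a6 was related to S100a8 at 0.51 and to S100a9 at 0.47, to S100a16 at 0.60 and to S100a1 at -0.76. S100a10 stayed between -0.13 and 0.25 with every other tested member. S100a1 and S100a13, which are neighbours on chromosome 3 as S100a8 and S100a9 are, correlated at 0.09.

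Neutrophils carry most calprotectin in the body, and their other markers were dim. Of 25 listed neutrophil markers 20 were measured and 5 tested, namely Prtn3, Cxcr2, Csf3r, Fpr2 and Hdc. All 5 were lower with penicillin (median difference -0.21), beside 47.2% of all genes, and 0 passed the adjusted threshold. Csf3r alone, the receptor of the growth factor G-CSF, had an unadjusted p under 0.05 (1 of 5, beside 7.98% of all genes). Without control 6 the 5 markers were 1 higher and 4 lower, with a median of -0.04 and 0 at an unadjusted p under 0.05. Prtn3 was the one that turned, to 0.10. Without control 1, 3 and 5 all 5 were lower, with a median of -0.25 and 0 at an unadjusted p under 0.05. Csf3r averaged 5.83 ± 0.20 in penicillin livers and 6.07 ± 0.17 in control livers (SD, n = 6 each), a difference of -0.24 (limma adjusted p = 0.594). The granule genes Mpo, Elane, Camp, Ltf and Ngp were under the filter, with differences of -0.02, -0.10, -0.05, -0.09 and -0.36, while Ly6g and Retnlg were not analysed here. Summed over the 20 measured markers, intensity ran from 448 to 530 in penicillin livers and from 497 to 1907 in control livers.

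The high sum belonged to control 6, the liver with the most S100a8 and S100a9; without it the controls reached 539. In that liver the granule protease Prtn3 reached 10.39, against 4.85 to 5.31 in all other livers, and Ngp reached 5.79, against 4.37 to 4.85 elsewhere. Prtn3 made up most of the high sum and of the high list mean of control 6. Csf3r (6.38), Fpr2 (6.77), Camp (4.43) and Ltf (4.29) were also highest there, by far less. Cxcr2 (5.02), Hdc (5.80) and Mpo (4.41) lay inside the range of the other controls, and Elane (3.98) was the lowest control. In the other 5 controls S100a8 ran from 5.49 to 7.33, while the mean of the 5 tested neutrophil markers stayed between -0.11 and -0.00 (centred log2). Within control livers that mean correlated with the mean of S100a8 and S100a9 at r = 0.71 (exact permutation p = 0.0958, adjusted 0.128) and rho = 0.31 (exact p = 0.564, adjusted 0.564). Without control 6 and control 4 r was -0.17, so over these 5 markers the relation rested on those livers. Over all 20 measured markers, most of them dim, r was 0.81 (exact permutation p = 0.0181) and rho 0.89 (exact p = 0.0333) in control livers, and r was 0.59 without the same 2 livers. Within penicillin livers r was -0.10 (exact permutation p = 0.822, adjusted 0.822) and rho was -0.49 (exact p = 0.356, adjusted 0.475). Without penicillin 1 and penicillin 3 r was -0.96, so this value too depended on which livers were kept. What part neutrophil number has in the difference of S100a8 and S100a9 was not tested.

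Monocyte markers, which mark the second main source of calprotectin, were divided: of 5 tested, 2 were higher and 3 lower, with a median difference of -0.02. Without control 6 they were 3 higher and 2 lower, and without control 1, 3 and 5 they were 1 higher and 4 lower (median -0.17). Lyz2, the lysozyme of macrophages and granulocytes, differed by -0.23 (limma adjusted p = 0.57). Of 12 Kupffer cell markers tested, 2 were higher and 10 lower, beside 47.2% of all genes lower, with a median of -0.09 and 0 with an unadjusted p under 0.05. Without control 6 they were 6 higher and 6 lower. Without control 1, 3 and 5 all 12 were lower (median -0.20), 1 with an unadjusted p under 0.05. Hepatocyte markers other than Ass1 were bright in every liver. Ass1 ranged from 6.89 to 7.92 in penicillin livers and from 5.87 to 8.75 in control livers. Summed over the 9 measured markers, intensity ran from 142800 to 158400 in penicillin livers and from 148500 to 155500 in control livers.

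Other genes set control livers apart in the same arrays. Immediate early genes, which respond within minutes to stress or handling, were high in control 1, control 3 and control 5, with centred list means of 2.08, 2.14 and 1.51, against -0.89 to -0.62 in penicillin livers and -0.82 to -0.25 in the other controls. Acute phase genes, which the liver makes during inflammation, had a centred mean of 1.74 in control 6, against -0.27 to 0.05 in penicillin livers and -0.43 to 0.24 in the other controls. The 4 livers named here held the 4 highest values of S100a8 and of S100a9. Without control 1, 3 and 5 the differences were -1.72 for S100a8 and -1.52 for S100a9. Without control 6 they were -1.66 and -1.36. Without all 4, which left control 2 and control 4, they were -0.92 for S100a8 and -0.78 for S100a9; this comparison was added after the data were seen. Both remaining controls lay above every penicillin liver for both genes, by as little as 0.03 for S100a9, which the choice of the pair had fixed in advance. Probeset 1439348_at of S100a10 was also high in control 1, 3 and 5, as described above. The part that the immediate early and acute phase responses have in the S100 values was not tested.

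**Figure D4:**
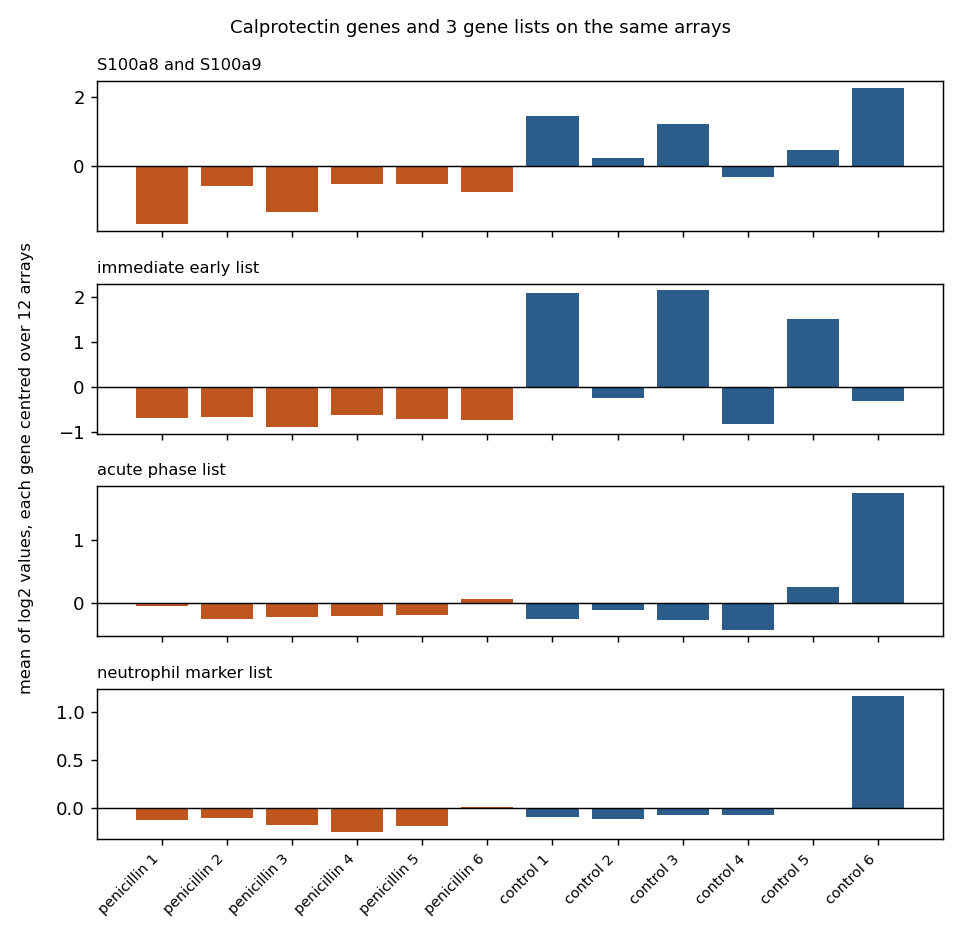
Bars give each liver's mean log2 level, each gene centred over the 12 arrays, for S100a8 with S100a9, the immediate early list, the acute phase list and the 5 tested neutrophil markers; penicillin (orange) left, control (blue) right. Control 1, 3 and 5 carry the high immediate early means (2.08, 2.14 and 1.51), and control 6 carries the high acute phase (1.74) and neutrophil (1.17) means. Prtn3 makes up most of that neutrophil mean.

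Clock genes also varied between livers. Of the 10 tested, 5 were higher and 5 lower with penicillin, so a mean over the list is no level of the clock. Their centred list mean was 0.41, 0.33 and 0.31 in penicillin 1, penicillin 5 and penicillin 6 and 0.25 in control 6, against -0.27 to -0.12 in the other penicillin livers and -0.53 to 0.16 in the other controls. Without these 4 livers, a comparison likewise added after the data were seen, the difference was -1.52 for S100a8 and -1.32 for S100a9, and the difference of S100a10 turned positive, at 0.15.

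Genes for sensing calprotectin differed in both directions by small amounts. Of 9 tested, 2 were higher and 7 lower, beside 47.2% of all genes lower, with a median of -0.05, and 0 passed the adjusted threshold. Cd14, a co-receptor of Toll-like receptor 4, averaged 6.62 ± 0.27 in penicillin livers and 7.01 ± 0.31 in control livers (SD, n = 6 each), a difference of -0.40 (limma adjusted p = 0.571). Cd36, a scavenger receptor and fatty acid transporter that binds S100A8 and S100A9 with arachidonic acid, averaged 9.25 ± 0.32 in penicillin livers and 8.77 ± 0.37 in control livers, a difference of 0.48 (limma adjusted p = 0.57). Rela, a subunit of NF-kappa-B, differed by -0.23 (limma adjusted p = 0.57). Tlr4 was under the filter, at 4.10 ± 0.15 in penicillin livers and 4.30 ± 0.23 in control livers. Ager, the gene of RAGE, differed by 0.05 (limma adjusted p = 0.913).

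Of 8 tested genes whose products regulate S100a8 and S100a9, 4 were higher and 4 lower, with a median of -0.03 and 0 past the adjusted threshold. Without control 6 they were 5 higher and 3 lower, and without control 1, 3 and 5 they were 2 higher and 6 lower. Stat3, which carries the signal of interleukin 6, averaged 9.57 ± 0.16 in penicillin livers and 9.97 ± 0.25 in control livers (SD, n = 6 each), a difference of -0.40 (limma adjusted p = 0.444). Its receptor gene Il6ra differed by -0.45 (limma adjusted p = 0.668). Cebpa, which drives myeloid and hepatocyte genes, differed by 0.26 (limma adjusted p = 0.571), Cebpb by -0.07 and Cebpd by -0.32. Spi1, the gene of PU.1, differed by 0.02.

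Genes for recruiting neutrophils were mostly lower: 7 of 8 tested, beside 47.2% of all genes, with a median of -0.16 and 0 past the adjusted threshold. Without control 6 the count was 6 of 8 and the median -0.06, and without control 1, 3 and 5 it was 7 of 8 and the median -0.34. Cxcl1, a neutrophil-attracting chemokine, ranged from 7.10 to 8.19 in penicillin livers and from 6.87 to 10.66 in control livers, with control 6 and control 5 highest. Its difference was -1.22 (standard error 0.57, limma adjusted p = 0.638). Icam1, an adhesion molecule of blood vessel walls, ranged from 6.24 to 6.87 in penicillin livers and from 6.89 to 7.61 in control livers, without overlap, a difference of -0.46 (limma adjusted p = 0.511). Of 9 tested binding partners of S100 proteins, 4 were higher and 5 lower, with a median of -0.01 and 0 past the adjusted threshold. Anxa2, the partner of S100a10, differed by 0.05 (limma adjusted p = 0.961), Fgf1, the cargo of S100A13, by 0.12 (limma adjusted p = 0.841) and Cacybp, the calcyclin-binding protein named for S100A6, by -0.26 (limma adjusted p = 0.594).

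Over the 12 livers, after removal of group means, the gene most like the mean of S100a8 and S100a9 was Socs3 (r = 0.90), a feedback inhibitor of cytokine signalling. It ranged from 6.51 to 7.18 in penicillin livers with a median of 6.76, and from 6.19 to 9.36 in control livers with a median of 7.88. Control 6 was highest for Socs3 (9.36), followed by control 3 (8.28) and control 1 (8.17), the livers that were also the 3 highest for S100a8, while control 4 lay below all penicillin livers. Its difference was -0.96 (standard error 0.42, limma adjusted p = 0.602). The next 9 by likeness were Mettl15, Usp49, Lsm8, Gpn3, Kiz, Amz2, Gtdc1, Cant1 and Thnsl1, with r from 0.89 to 0.84 and differences between -0.06 and 0.14. Of the lists, the sensing genes (0.76), the regulators (0.71) and the recruitment genes (0.68) were most related to the pair. The cholangiocyte (0.62), neutrophil (0.61) and acute phase (0.59) lists came next, close to each other, and immediate early genes reached 0.29.

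S100a6 was described in the same way. The 5 genes most like the mean of S100a6 and S100a10 were Itga8 (0.94), Krt19 (0.94), Prss23 (0.93), Crip1 (0.93) and Rps10 (0.93). With S100a6 taken alone, a choice made after its values were seen, they were Crip1 (0.98), Gpm6a (0.95), Ogn (0.94), Fmod (0.93) and Ccdc3 (0.93); Ogn and Fmod encode proteoglycans of connective tissue. S100a6 followed the stellate cell and fibroblast markers at 0.82, the monocyte markers at 0.72 and the B and plasma cell markers at 0.70, while S100a8 followed the stellate list at 0.27. That list was lowest in penicillin 1 and penicillin 3, with centred means of -0.52 and -0.45, the livers with the least S100a6. Of its 11 tested genes 1 was higher and 10 lower, beside 47.2% of all genes lower, with a median of -0.18 and 0 with an unadjusted p under 0.05. The list of cholangiocyte (bile duct cell) markers was related to S100a8 at 0.68, to the mean of S100a8 and S100a9 at 0.62 and to S100a6 at 0.59. Its tested genes were Krt7, Krt19, Epcam, Sox9, Krt8 and Krt18, of which Krt8 and Krt18 are not particular to bile ducts. All 6 tested were lower, beside 47.2% of all genes. Krt19, Sox9 and Krt18 (3 of 6) had an unadjusted p under 0.05, beside 7.98% of all genes, and 0 passed the adjusted threshold. Without control 6 all 6 were lower (median -0.27), 3 with an unadjusted p under 0.05. Without control 1, 3 and 5 all 6 were lower (median -0.26), but only 1 had an unadjusted p under 0.05. Sox9 then differed by -0.28, against -0.56 with all livers. Krt23, Cldn4 and Cftr, measured but under the filter, went the other way, at 0.34, 0.03 and 0.05. Whether the share of any of these cell types bears on S100a6, S100a8 or S100a9 was not tested. For S100a10 alone, also a later choice, the closest genes were Acsl5, Pla2g12b, Ube2u, Nt5e and Snrpg (0.95 to 0.94). Its strongest list relation was with the mean of the clock list, at -0.69.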

How the data were processed

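Liver RNA of 12 mice was hybridised to 1 array each after labelling with a 3-prime amplification kit, per the labels' protocols. The authors deposited 1 table of probeset intensity values that RMA had produced according to the submitters' processing notes. Its software version is not given in the sources used here, nor is a genome build. On their linear scale the deposited intensities were turned into log2 values here. RMA makes the distributions of arrays alike, which would hide a shift of most genes in one direction. Of 45037 probesets other than 64 controls, 34945 had 1 gene in the platform annotation, 932 several and 9160 none there. Probesets with a mean under 4.73, the median, were left out, and the brightest single-gene probeset was kept for each of 11899 genes. Group means were compared with limma 3.58.1 in R 4.3.3 (two-sided, empirical Bayes, Benjamini-Hochberg over all genes tested, threshold 0.05). Any 2 arrays correlated at 0.980 to 0.997. The number of arrays limits the precision. Correlations, exact permutation tests and motif searches used Python 3.11.15 with scipy 1.17.1.

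The members and the gene lists were chosen with earlier results of these data known. The genes named were all S100 genes with a single-gene probeset, the 10 genes most like the mean of S100a8 and S100a9, the 5 most like S100a6, S100a10 and S100a11 (S100a11 had no value and was dropped), defining neutrophil markers and up to 4 genes of each list with the smallest p; Ager, Cebpb, Cebpd, Spi1, Tlr4, Anxa2 and Saa1 were named after their values were seen. The tests were tried on simulated data with known answers. Alternatives were no filter and a stricter one, repeated quantile normalization, centring on array medians, probesets averaged, a replicate block, array weights, a variance trend and the omission of single arrays and of arrays that stood apart.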

Additional observations from a re-analysis of the deposited data

Results flagged for a closer look

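In 126 groups of 6 values examined, 14 held 1 array far from the other 5; chance gives about 1 in 20 groups such an array. Of the 14, 7 were in control 6. There S100a10 was low, at 11.04 against 11.39 to 11.57 in the other controls. The neutrophil list mean was 1.17 against -0.11 to -0.00, and the acute phase list mean was 1.74 against -0.43 to 0.24. Prtn3 was 10.39 against 4.85 to 5.11, Ngp 5.79 against 4.40 to 4.85, Lcn2 11.78 against 4.80 to 6.61 and Icam1 7.61 against 6.89 to 7.08 in the other controls. Among penicillin livers, S100a3, under the filter on dim probesets, was 3.64 in penicillin 4 against 3.25 to 3.35. The mean of the T and NK cell list was 0.37 in penicillin 6 against -0.05 to 0.03, and 0.064 in control 2 against -0.10 to -0.06 in the other controls. The mean of the regulators of S100a8 and S100a9 was 0.066 in penicillin 1 against -0.09 to -0.04. Rela was 8.82 in penicillin 1 against 9.07 to 9.21, Camp 3.99 in penicillin 3 against 4.13 to 4.19 and Saa1 10.54 in penicillin 6 against 9.66 to 9.98 in the other penicillin livers.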

How the results depend on the processing

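S100a8 and S100a9 were lower with penicillin under each of 22 alternatives. Where arrays were left out or weighted, this direction was fixed in advance, because the pair was chosen for groups that do not overlap. No filter, probesets averaged, the replicate block and the variance trend could not change the differences of S100a8 and S100a9 (-1.94 and -1.63). Their differences ran from -2.17 to -1.66 and from -1.88 to -1.36 when 1 array was left out. Without control 1, 3, 5 and 6, an alternative added after the data were seen, they shrank to -0.92 and -0.78; the cause was not tested, though only 2 controls were left. The number of other S100 genes past the adjusted threshold was 0 in limma under all 23 alternatives (lowest adjusted p = 0.354, from S100a6 with the replicate block). S100a6 stayed lower, between -0.88 and -0.48, and S100a16 stayed higher, between 0.01 and 0.09. Under the stricter filter S100a6, S100a8 and S100a9 were not tested, being too dim. Small differences changed sign. S100a10 was 0.027 without control 1, 3 and 5, 0.15 without control 6 and penicillin 1, 5 and 6, and from -0.11 to 0.054 with 1 array left out. S100a13 was -0.022 without control 1, 3 and 5, -0.015 without control 1, 3, 5 and 6, and from -0.011 to 0.067 with 1 array left out. S100a1 was 0.0018 without control 1, 3, 5 and 6. The cause of these changes was not tested. The relation of the pair to neutrophil markers in controls was 0.813 (exact permutation p = 0.0181) over all 20 measured markers, against 0.71 over the 5 tested. List counts were also taken without control 6 and without control 1, 3 and 5 after the data were seen, and 0 list genes passed in either. Replicate numbers are shared by the groups, and the labels do not say that they pair mice. Deviations of same-numbered arrays correlated at 0.25 to 0.39 in 4 pairs and at 0.04 and -0.25 in the others. Of the 12 arrays, 5 correlated best with their own number. These values do not settle whether the mice were paired. Because the labels name no pairs, the arrays were not treated as paired. The replicate block cannot change a difference of group means, because each number occurs once per group (-1.94 for S100a8 and -1.63 for S100a9). With that block, 0 other S100 genes passed. Signal over background limits the dim genes: S100a4 and 6 further S100 genes could not be compared.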

Other observations

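Other marker lists held values not described above, and 0 of their genes passed limma's adjusted threshold. Over all genes tested, 47.2% were lower with penicillin and 7.98% had an unadjusted limma p under 0.05. Of 6 tested T and NK cell genes 5 were higher with penicillin (median difference 0.08); the T cell receptor subunit Cd3d differed by 0.23 (limma adjusted p = 0.567). Of 4 tested B and plasma cell genes 3 were higher (median 0.24), and both tested erythroid genes were higher (median 0.21; 1 of the 2 without control 6), with Car1, the red cell carbonic anhydrase, at 0.33 (limma adjusted p = 0.465). Of 10 tested endothelial genes 7 were lower (median -0.10). All 15 acute phase genes were lower (median -0.16); Lcn2, whose product binds bacterial siderophores, differed by -0.89 (limma adjusted p = 0.87) and was 11.78 in control 6. Without control 6, a comparison added after the data were seen, 9 of the 15 were higher and 6 lower (median 0.03), and Lcn2 and Saa1 turned to 0.16 and 0.12. Without control 1, 3 and 5, also a later comparison, 15 of the 15 were lower (median -0.25). All 12 tested immediate early genes were lower (median -1.16), 11 with an unadjusted p under 0.05; without control 1, 3 and 5 they were 2 higher and 10 lower (median -0.20), 2 of them with an unadjusted p under 0.05. Of 10 clock genes 5 were higher and 5 lower (median 0.06). Dbp differed by 1.02 and Per3 by 0.90 (limma adjusted p = 0.867 and 0.731), against -0.37 for Per1 and -0.31 for Clock (limma adjusted p = 0.86 and 0.837).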
